A study of Mus musculus with 141 samples.

Results

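The 9 genes described here are established markers of adipose progenitors, the fibroblast-like stromal cells of fat that can become adipocytes. They were taken by name from the 36558 genes of the expression tables. All 9 were listed and all 9 passed the filter on low counts in the comparison of the sexes. Expression was measured by RNA-seq in inguinal white adipose tissue (iWAT), labelled subcutaneous adipose, from inbred strains of the Hybrid Mouse Diversity Panel (HMDP). The 82 strains gave 67 female and 74 male libraries, 1 per sex and strain, and both sexes were present for 59 strains. Both sexes received, from 8 weeks of age and for 8 weeks, a diet rich in fat and sucrose (HF/HS) and were fasted for 4 h before collection, so that no chow-fed group is compared. By their names the strains fall into the recombinant families BXD (40 strains), AXB/BXA (11 strains), BXH (4 strains) and CXB (3 strains), and into 24 classical inbred strains. The strain BXD24/TyJ-Cep290<rd16>/J carries, by its name, the rd16 allele of *Cep290*, and it was counted with BXD in both sexes. Because a strain gives 1 library per sex, the strains are the replicates of a sex. AXB19/PgnJ, AXB19a/PgnJ and AXB19b/PgnJ share a line number in their names and may be closely related. They were counted as separate strains in every test, and fits that join them were not run. Within a sex, a *p*-value covers the spread between strains together with that between libraries of a strain, which cannot be told apart. In fits that hold both strain and sex, it covers how the difference between the sexes varies over strains.

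Adipose progenitors lie around the vessels and in the collagen-rich septa of the fat pad, and the receptor tyrosine kinase PDGFRα marks nearly all of them. A population rich in *Dpp4* and *Pi16* is held to be the least committed and sits in the interstitium. *Wnt2* and *Cd55* have been listed with it, *Icam1* marks committed preadipocytes, and *F3*, *Clec11a* and *Fmo2* mark the CD142+ cells, for which a restraint of adipogenesis in neighbouring cells has been described. None of these genes is restricted to progenitors. *Icam1* and *Dpp4* are also carried by leukocytes, *Icam1* by endothelium and *Cd55* by most cells exposed to complement.

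Promoter sequences are shown for *Dpp4*, *Pi16* and *Wnt2*, which moved together within the libraries low in lymphocyte markers, and for *Cd55* and *Icam1*, which had, like *Dpp4*, higher medians in the libraries rich in them. Each line is the 250 bases before the start of transcription annotated by RefSeq, 5′ to 3′ on the strand of the gene, from RefSeq on GRCm38.p6, in which an entry was found for all 9 members. Capitals mark matches, on either strand, to 4 motifs. The kappaB site of NF-κB factors was searched as GGAAATTCC. The site of AP-1, the factor of Fos and Jun proteins, was searched as TGANTCA. The TATA box was searched as TATAAA, and the GC box, at which Sp1 can bind, as GGGCGG.
*Dpp4*: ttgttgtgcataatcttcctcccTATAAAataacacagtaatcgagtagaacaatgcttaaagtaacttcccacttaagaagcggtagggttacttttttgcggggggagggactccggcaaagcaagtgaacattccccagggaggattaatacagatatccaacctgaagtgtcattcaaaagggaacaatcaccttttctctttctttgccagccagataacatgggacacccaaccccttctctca
*Pi16*: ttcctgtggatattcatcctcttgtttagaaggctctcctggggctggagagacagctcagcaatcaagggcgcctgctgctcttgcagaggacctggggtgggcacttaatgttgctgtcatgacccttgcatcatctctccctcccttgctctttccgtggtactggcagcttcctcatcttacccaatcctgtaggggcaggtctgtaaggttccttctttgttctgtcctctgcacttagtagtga
*Wnt2*: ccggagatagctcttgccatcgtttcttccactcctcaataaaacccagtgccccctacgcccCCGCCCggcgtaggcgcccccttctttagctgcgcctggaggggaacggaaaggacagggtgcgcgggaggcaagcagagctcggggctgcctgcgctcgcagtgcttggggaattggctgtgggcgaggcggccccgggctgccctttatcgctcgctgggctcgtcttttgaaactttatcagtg
*Cd55*: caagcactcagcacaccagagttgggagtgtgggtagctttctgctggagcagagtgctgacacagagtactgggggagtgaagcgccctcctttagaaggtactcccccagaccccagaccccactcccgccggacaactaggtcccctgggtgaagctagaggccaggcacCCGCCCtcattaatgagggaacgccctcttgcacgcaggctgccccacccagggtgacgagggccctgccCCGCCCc
*Icam1*: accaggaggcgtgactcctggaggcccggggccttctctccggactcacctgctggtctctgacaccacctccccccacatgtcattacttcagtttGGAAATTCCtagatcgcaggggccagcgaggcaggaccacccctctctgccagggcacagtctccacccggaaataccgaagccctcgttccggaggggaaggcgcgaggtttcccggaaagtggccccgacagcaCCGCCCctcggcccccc

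These windows are chr2:62412232-62412481 (minus strand) for *Dpp4*, chr17:29318632-29318881 (plus) for *Pi16*, chr6:18030446-18030695 (minus) for *Wnt2*, chr1:130462745-130462994 (minus) for *Cd55* and chr9:21015690-21015939 (plus) for *Icam1*. Counted from the annotated start, the window of *Icam1* held the kappaB letters from -153 to -145, a match present in 0.286% of the 32851 RefSeq promoter windows searched. This site was searched in a single spelling, longer than those of the other motifs, so its share is not comparable with theirs. The share is that of this spelling, which is the one *Icam1* holds, and not that of kappaB sites at large. Other spellings were not searched, so the windows cannot be ranked by kappaB sites. Whether NF-κB factors act on *Icam1* here was not tested. *Icam1* and *Cd55* held the GC box letters, as did 32.7% of all windows, at -17 to -12 in *Icam1* and at -77 to -72 and -7 to -2 in *Cd55*. In *Wnt2* the GC box letters lay at -187 to -182, and *Dpp4* held the TATA box letters at -227 to -222, letters present in 12.4% of windows. *Pi16* held no match to the 4 motifs in this window. The RefSeq start of *Pi16* lies 1202 bases and that of *Wnt2* 140 bases inside the gene as bounded by GENCODE M21, whose positions are given for the genes here, so these windows lie wholly or partly within those gene bounds. The AP-1 letters, found in 6.75% of windows, were among the members in *F3* only, at -146 to -140 and -135 to -129. These matches are descriptions of letters and not of binding.

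Depth ranged from 6269154 to 78562648 estimated counts per library, with a median of 30233245. A floor of 3 counts was 0.0967 CPM at the median and at most 0.859 CPM, and it covers counting error only. Of the member values, 1 was at the floor, *Clec11a* in the BXD34/TyJ female. The tissue label was checked with *Adipoq*, *Plin1*, *Plin4*, *Cidec* and *Fabp4*, which summed to a median of 17805 CPM in females and 23532 CPM in males. The sex labels were checked with *Ddx3y*, *Eif2s3y*, *Kdm5d* and *Uty*, which summed to 5.58 to 34.1 CPM in 65 of the female libraries and to 185 to 539 CPM in 73 of the male ones. The lowest of these males, PL/J, also had the highest sum of 9 mammary epithelial markers among them, 331 CPM against a median of 2.49 CPM. The NZW/LacJ library labelled male had 8.15 CPM and 483 CPM of the mammary markers, and the BXD69/RwwJ library labelled female had 368 CPM and 0.888 CPM. The BXD34/TyJ library labelled female had 1425 CPM, of which *Uty* gave 1259 CPM and *Ddx3y* 4.09 CPM, against at least 81.8 CPM of *Ddx3y* in the 73 males, and its mammary sum was 85.9 CPM. It was also the shallowest library and the one with the highest share of mitochondrially encoded counts, 29.9%. NZW/LacJ is the only one of these 3 strains with both sexes, and results that rest on these libraries are given without them.

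In bulk tissue, fewer cells of a type and less RNA per cell cannot be told apart, and this holds for every level and difference given here. Levels of different genes were compared in TPM, which divides by transcript length. The order of the median levels in females was *Cd55* (57.2 TPM), *F3* (44.1), *Pi16* (27.7), *Fmo2* (25.7), *Pdgfra* (22.3), *Icam1* (16.4), *Dpp4* (14.4), *Wnt2* (2.09) and *Clec11a* (1.19). In males it was *Cd55* (59.1 TPM), *F3* (44.4), *Fmo2* (30.3), *Pi16* (20.5), *Pdgfra* (17.9), *Icam1* (13.5), *Dpp4* (12.9), *Clec11a* (1.05) and *Wnt2* (0.921). Neighbours in this order were compared within each library, and the mean log2 ratio exceeded its SD over libraries only at the step below *Dpp4*, where *Dpp4* was above the next gene in 67 of 67 females and 74 of 74 males. At all other steps the neighbours did not differ beyond this spread.

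**Figure D1:**
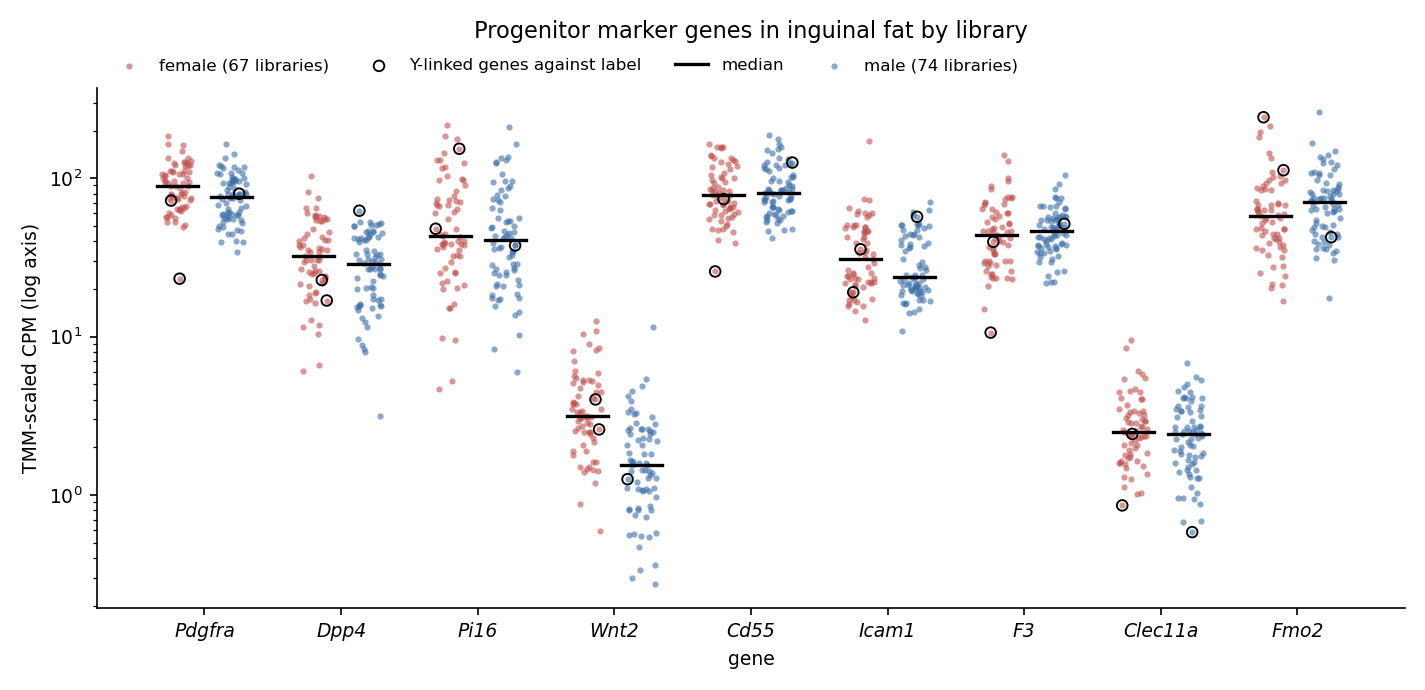
Expression of the 9 genes as TMM-scaled CPM on a log axis, each point 1 library of a strain, with 67 females in red and 74 males in blue. Black bars are medians, and circles mark the 3 libraries whose Y-linked genes go against the label. *Wnt2* has medians of 3.16 CPM in females and 1.55 CPM in males, whereas the medians of *Cd55* are 78.3 and 81.2 CPM.

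*Pdgfra*, the receptor for PDGF-AA and the general marker of the lineage (ENSMUSG00000029231, chr5:75152292-75198215 on GRCm38, plus strand), ran in females from 23.2 CPM (BXD34/TyJ) over a median of 89.6 to 184 CPM (AXB13/PgnJ), and in males from 34.2 (BXD12/TyJ) over 76.1 to 165 CPM (BXA11/PgnJ). Its coefficient of variation (CV, the SD as a share of the mean) was 33.4% in females, the lowest of the 9, and 34.3% in males, next to 34% for *F3*. Without the library of BXD34/TyJ the lowest female value was 49.3 CPM (BXA2/PgnJ).

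Among the genes of the interstitial population, *Pi16*, a peptidase inhibitor anchored at the cell surface (ENSMUSG00000024011, chr17:29317680-29330593, plus strand), had the widest range in females. Its values ran from 4.68 (FVB/NJ) over 42.9 to 217 CPM (BXD75/RwwJ) in females, a 46.3-fold range, and from 5.99 (BXD12/TyJ) over 40.6 to 211 CPM (SM/J) in males, with CVs of 75.3% and 76.4%. *Dpp4*, which encodes the dipeptidyl peptidase CD26 (ENSMUSG00000035000, chr2:62330073-62412231, minus strand), ran from 6.02 (DBA/2J) over 32.2 to 102.5 CPM (BXD75/RwwJ) in females and from 3.14 (BXD12/TyJ) over 28.8 to 62.4 CPM (NZW/LacJ) in males. The highest male value of *Dpp4* is thus from the library with Y-linked genes at the level of females, and without it the highest was 52.6 CPM (BXD11/TyJ). *Wnt2*, a secreted Wnt ligand (ENSMUSG00000010797, chr6:17988940-18030585, minus strand), ran from 0.594 (BXD38/TyJ) over 3.16 to 12.5 CPM (BXD64/RwwJ) in females and from 0.273 (BXA2/PgnJ) over 1.55 to 11.5 CPM (BXD11/TyJ) in males. The lowest of these values rested on 8 counts, and the CV was 83% in males, or 63.2% without BXD11/TyJ, after which the highest male was SM/J at 5.36 CPM. *Cd55*, a membrane inhibitor of complement (ENSMUSG00000026399, chr1:130439027-130462744, minus strand), ran from 25.8 (BXD34/TyJ) over 78.3 to 165 CPM (BXD62/RwwJ) in females, with 38.8 CPM (DBA/2J) as the lowest without the library of BXD34/TyJ, and from 42.2 (FVB/NJ) over 81.2 to 187 CPM (BXD66/RwwJ) in males. Reads of *Cd55* can be shared with its copy *Cd55b*, to which a median of 0.755 CPM in females and 0.456 CPM in males was assigned.

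*Icam1*, the marker of committed cells, encodes an adhesion molecule that binds leukocyte integrins (ENSMUSG00000037405, chr9:21015985-21028817, plus strand). It ran from 12.8 (BXD12/TyJ) over 31 to 172 CPM (AXB12/PgnJ) in females and from 10.9 (BXD12/TyJ) over 23.7 to 70.5 CPM (I/LnJ) in males. The AXB12/PgnJ value stands alone, since the next highest female had 73.4 CPM (SJL/J).

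Among the markers of CD142+ cells, *Clec11a*, a secreted growth factor of bone (ENSMUSG00000004473, chr7:44302687-44306902, minus strand), ran from 0.859 (BXD34/TyJ) over 2.49 to 9.49 CPM (BXD71/RwwJ) and from 0.583 (NZW/LacJ) over 2.43 to 6.77 CPM (DBA/2J). Both lowest values of *Clec11a* came from libraries whose Y-linked genes go against the label, and without them the lowest were 1.02 CPM in females and 0.673 CPM in males. *F3*, the tissue factor that starts coagulation and is also called CD142 (ENSMUSG00000028128, chr3:121723537-121735048, plus strand), ran from 10.6 (BXD34/TyJ) over 43.7 to 140.97 CPM (BXD50/RwwJ) in females and from 21.9 (AXB19b/PgnJ) over 46.3 to 104.5 CPM (BXD12/TyJ) in males. *Fmo2*, a flavin-containing monooxygenase (ENSMUSG00000040170, chr1:162874317-162898726, minus strand), ran from 16.8 (AXB12/PgnJ) over 57.7 to 243 CPM (BXD34/TyJ) in females and from 17.4 (SM/J) over 70.3 to 262 CPM (BXD43/RwwJ) in males. Without the library of BXD34/TyJ the lowest female value of *F3* was 14.9 CPM and the highest of *Fmo2* was 212 CPM. The ranges of the sexes overlapped in all 9 genes.

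Whether the members differ between the sexes was asked in the 59 strains with both, with strain and sex as terms of a quasi-likelihood fit in edgeR, and *p* was adjusted by Benjamini-Hochberg over the 16765 genes tested, with a threshold of 0.05. Of the 9 members, 4 passed with higher values in females, while 28.4% of all genes tested did. A further member, 1 of 9, was lower in females, against 29.8% of all genes. The median log2FC (female vs. male) of the 9 members was 0.20, compared with 0.01 over all genes.

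*Wnt2* showed the largest sex difference of the 9. In the matched strains the females had a mean of 3.91 ± 2.52 CPM and the males one of 1.73 ± 1.15 CPM (SD, n = 59 each), a log2FC of 1.22 ± 0.17 (SE) or 2.33-fold, with an adjusted *p* of 1.19e-08 (edgeR). In 48 of 59 strains the female was higher. The range was wide, from -1.43 in MA/MyJ to 3.79 in BXD40/TyJ on the log2 scale.

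*Pdgfra* was higher in females by a log2FC of 0.28 ± 0.07 (edgeR, adjusted *p* = 0.00028) and in 42 of 59 strains, with means of 93.8 ± 30.3 and 78.4 ± 25.7 CPM. *Dpp4* was higher by 0.36 ± 0.14 (adjusted *p* = 0.0194, edgeR) and in 39 strains, with means of 37.1 ± 19.4 and 28.9 ± 14.1 CPM. *Icam1* was higher by 0.26 ± 0.11 (adjusted *p* = 0.0363, edgeR), also in 39 strains, with means of 38.3 ± 23.95 and 31.1 ± 15.05 CPM. *Fmo2* was lower in females by a log2FC of -0.30 ± 0.10 (adjusted *p* = 0.00659, edgeR) and in 38 strains, with means of 63.2 ± 40.1 and 75.9 ± 40.1 CPM. These 4 differences are small beside the spread over strains, with the means of the sexes lying within 1 SD of each other.

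*Pi16* (log2FC 0.20 ± 0.21), *Cd55* (0.04 ± 0.08), *F3* (-0.08 ± 0.09) and *Clec11a* (0.14 ± 0.10) did not pass the test, with adjusted *p* in edgeR from 0.216 to 0.673. For *Pi16*, whose difference within strains ran from -2.70 (BXD87/RwwJ) to 3.66 (BXD40/TyJ), the error leaves room for a difference as large as that of *Pdgfra*. The female was above the male in 33 of 59 strains.

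The 4 calls higher in females were kept without NZW/LacJ, whose library labelled male has Y-linked genes at the level of females, and without NZW/LacJ and PL/J, and so was that of *Fmo2*. With library totals in place of TMM, the median log2FC of all genes moved from 0.01 to 0.12, with 44.2% of genes higher and 16.5% lower in females beside 5 and 0 of the 9 members, and *Fmo2* had a log2FC of -0.20 (adjusted *p* = 0.0597, edgeR), no longer past the threshold, while *Clec11a* passed it (0.26, adjusted *p* = 0.0181, edgeR). Without the strain in the model (no replicate block) the same 4 members were higher in females and *Fmo2* had a log2FC of -0.25 with an adjusted *p* of 0.129. With limma on TPM (pseudocount 1), 31.9% of genes were higher and 17.2% lower, beside 4 and 0 members. The call of *Icam1* was lost with no filter on low counts (adjusted *p* = 0.0736) and with the mitochondrially encoded genes left out (adjusted *p* = 0.0587, edgeR).

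Markers of other cells differed between the sexes as well. The 9 mammary epithelial markers, among them *Krt18*, *Krt14* and *Krt5*, were all higher in females, with a summed level from 80.4 to 2197 CPM (median 559) in the matched females and from 0.292 to 483 CPM (median 2.59) in the males, where the medians of *Krt14* and *Krt5* were 0. The 5 adipocyte markers were all lower in females, with a median sum of 16825 CPM against 23458 CPM in males. With the adipocyte score, the mean log2 CPM of these markers, as a covariate *Wnt2* had a log2FC of 1.59 and *Pdgfra* of 0.39, both still past the threshold, whereas *Dpp4* (-0.02), *Cd55* (-0.22), *Icam1* (-0.31), *F3* (0.27) and *Fmo2* (0.02) changed sign. Of these, *Cd55*, *Icam1* and *F3* were past the threshold with the turned sign. *Pi16* had a log2FC of 0.61 in that fit (adjusted *p* = 0.044, edgeR).

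The other genes of these populations come from lists of markers of adipose stroma, which held none of the 9. Of 12 further interstitial progenitor genes, 3 were higher and 2 lower in females, with a median log2FC of 0.07. *Bmp7*, a ligand of the BMP family, was higher by a log2FC of 1.19 ± 0.15 and in 50 of 59 strains, and *Dact2*, an inhibitor of Wnt and TGF-β signalling, by 0.97 ± 0.17 and in 47. *Stmn4*, a regulator of microtubules, was lower in females by -0.72 ± 0.18, with means of 0.510 ± 0.469 and 0.790 ± 0.550 CPM. The calls of this list thus went in both directions.

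Of 8 committed preadipocyte genes, 1 was higher and 5 lower in females (median log2FC -0.33). The lower ones with the largest change were *Col4a1* (-0.69 ± 0.12) and *Col15a1* (-0.56 ± 0.14), both basement membrane collagens, and the transcription factor *Zfp423* (-0.56 ± 0.10). The 5 genes listed for the CD142 population gave 1 higher and 4 lower, among which *Mgp*, an inhibitor of calcification, was higher (0.49 ± 0.10) and *Gdf10* (-0.56 ± 0.11) and the sterol transporter *Abcg1* (-0.48 ± 0.10) were lower. In 10 general progenitor and fibroblast genes, 2 were higher and 5 lower, with *Lum*, a collagen-binding proteoglycan, at 0.55 ± 0.11, *Thy1* at 0.41 ± 0.11 and the actin-severing protein *Gsn* at -0.49 ± 0.12. All of these named genes passed an adjusted *p* of 0.05 in edgeR.

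**Figure D2:**
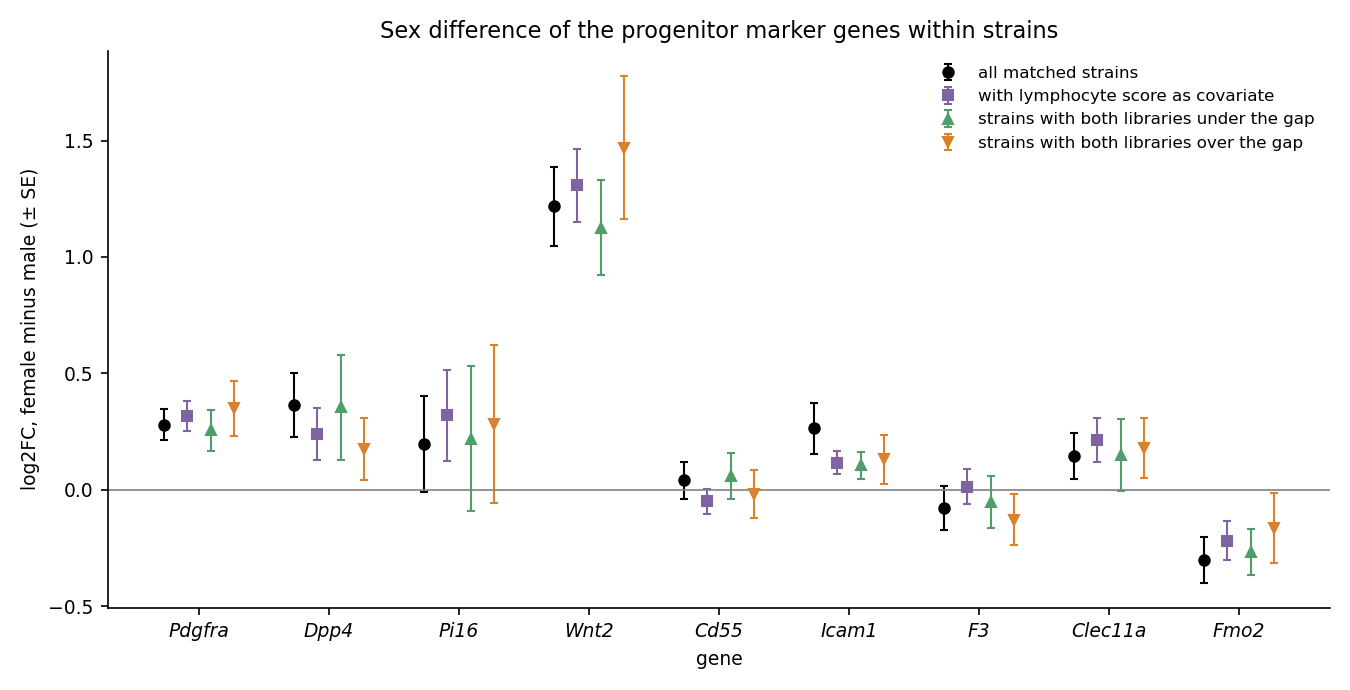
Log2FC (female minus male) of the 9 genes with its SE from edgeR in all 59 matched strains (black), with the lymphocyte score as covariate (purple), and in the strains with both libraries under (green, 19 strains) or both over (orange, 17 strains) the gap in lymphocyte markers. *Wnt2* lies between 1.13 and 1.47 in all 4 fits, while *Icam1* moves from 0.26 in all strains to 0.11 under the gap and 0.13 over it.

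The libraries fell into separate sets by 6 lymphocyte markers, among them the T cell genes *Cd3e* and *Cd3d* and the B cell gene *Ms4a1*. Their summed level was at most 40.3 CPM in 76 libraries (34 female, 42 male) and at least 80.1 CPM in the other 65 (33 female, 32 male), with none between. Both libraries were under this gap in 19 of the matched strains and both over it in 17, and in 15 strains the female library alone and in 8 the male library alone was over it. None of the 6 markers passed the edgeR test between the sexes (adjusted *p* of at least 0.118 for *Cd3e*, *Cd3d* and *Ms4a1*, median log2FC 0.53). The sets were defined from the data and are no groups of the study, so the levels in them are given without a test.

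*Icam1* followed this split with little overlap. In females it ran from 12.8 over 21.9 to 35.6 CPM (lowest, median, highest) in the libraries under the gap, the highest being that of BXD34/TyJ and the next 33.7 CPM (BXD71/RwwJ), and from 23.2 over 48.3 to 172 CPM in those over it. The male values were 10.9, 20.2 and 27.7 CPM under the gap and 26.2, 44.2 and 70.5 CPM over it. Every library over the gap, 33 of 33 in females and 32 of 32 in males, lay above the median of those under it.

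*Cd55* and *Dpp4* were also higher over the gap, with wide overlap. The median of *Cd55* was 64.4 and 102.1 CPM under and over the gap in females and 65.6 and 116.1 CPM in males, and that of *Dpp4* was 26 and 40.6 CPM in females and 20.2 and 42.1 CPM in males. The other 6 genes had lower medians over the gap in both sexes. *Pi16* had medians of 67.7 and 35.2 CPM in females and of 53.2 and 26.6 CPM in males, and *Fmo2* of 70.1 and 44.2 CPM in females and 80 and 49 CPM in males. The smallest such step was that of *Pdgfra*, with ratios of the medians over to under of 0.847 in females and 0.805 in males. The sum of the adipocyte markers was lower over the gap too, with medians of 22132 and 12358 CPM in females and 28018 and 19614 CPM in males, as was that of the 12 interstitial progenitor genes, with 416 and 229 CPM in females and 398 and 239 CPM in males.

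The sex differences of *Icam1* and *Dpp4* are given by these sets, as a description, since both genes differ between them. In strains with only 1 library over the gap, the sign for *Icam1* was largely set in advance by this split. The part of the split in these sex differences was not tested. In 15 of 15 strains *Icam1* was higher in the female where the female library alone was over the gap (mean difference of log2 CPM 1.29 ± 0.70, SD) and in 1 of 8 strains whose male library alone was over it (-0.99 ± 0.64). In the 19 strains with both libraries under the gap the mean difference was 0.11 ± 0.26, and in the 17 with both over it 0.10 ± 0.47. For *Dpp4* these 4 means were 1.13, -0.70, 0.38 and 0.14. The sex differences of *Icam1* and *Dpp4* did not pass the test in either set of strains with both libraries on the same side (edgeR, adjusted *p* from 0.158 to 0.351), which rests on fewer strains than the main comparison. Of all genes, 17.9% were higher in females in the strains under the gap and 19.4% in those over it.

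For *Wnt2* and *Pdgfra* the sex difference was present on both sides of the gap. *Wnt2* had a log2FC of 1.13 in the 19 strains with both libraries under it (adjusted *p* = 0.000227, edgeR) and of 1.47 in the 17 with both over it (adjusted *p* = 0.000969, edgeR). *Pdgfra* had 0.26 and 0.35 (adjusted *p* of 0.0255 and 0.0251, edgeR). *Fmo2* was lower in females under the gap (-0.27, adjusted *p* = 0.0388, edgeR) and had a log2FC of -0.16 over it (adjusted *p* = 0.416). With the lymphocyte score as a covariate in all 59 strains, *Dpp4* had a log2FC of 0.24 (adjusted *p* = 0.0575) and *Clec11a* of 0.21 (adjusted *p* = 0.0465, edgeR), which moved these 2 genes to the other side of the threshold.

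**Figure D3:**
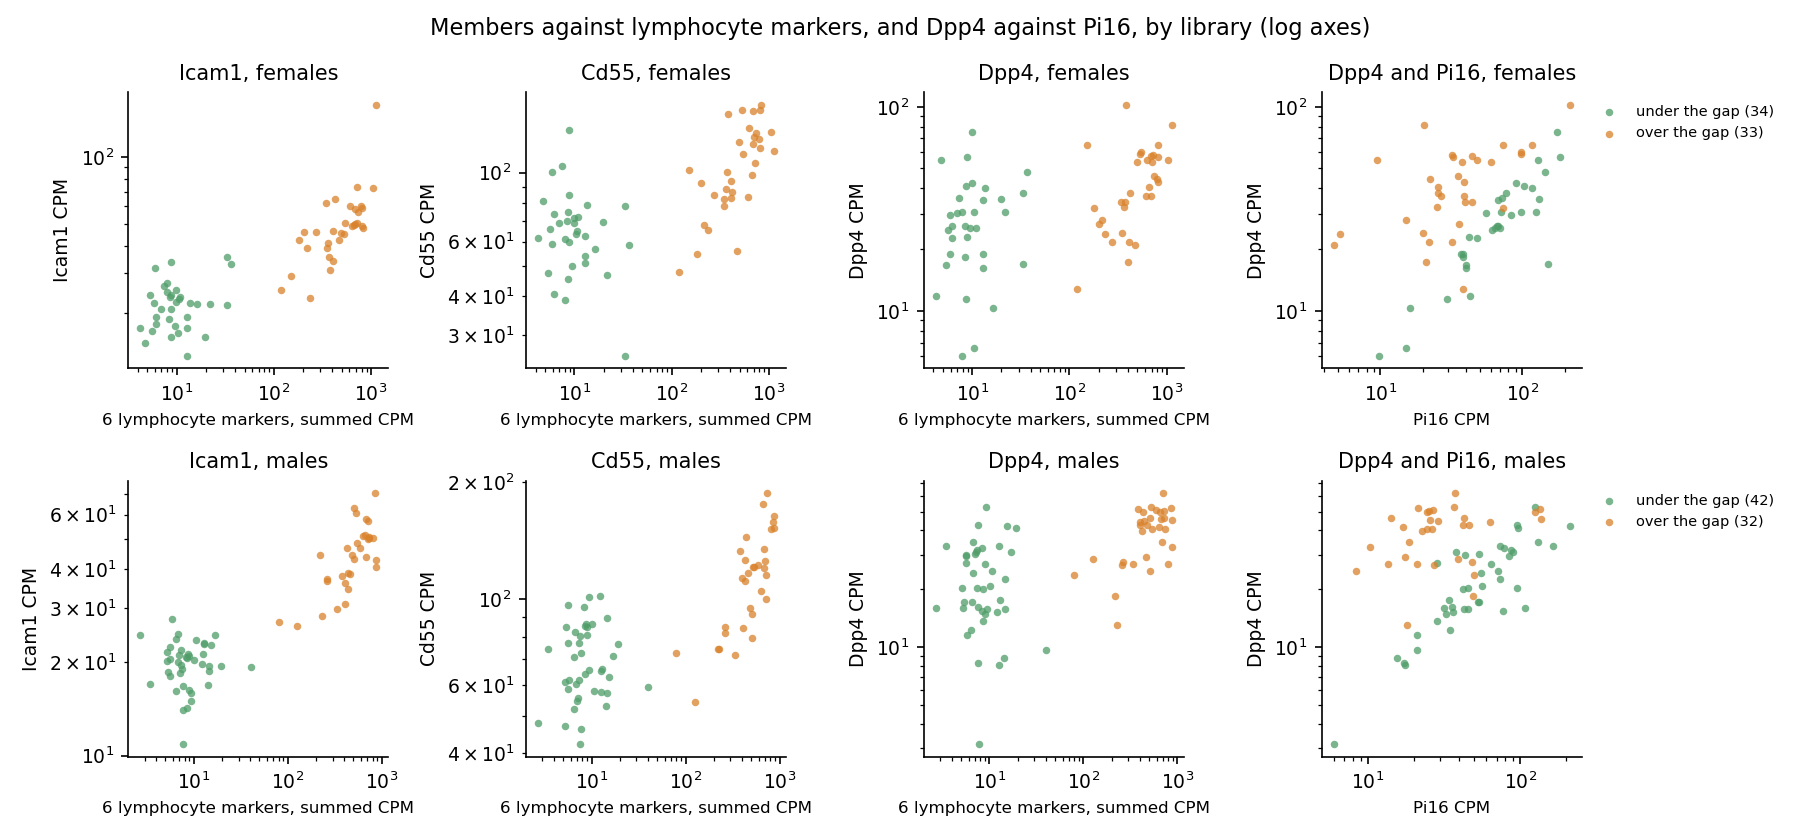
Each point is 1 library, females in the upper and males in the lower row, green under and orange over the gap in lymphocyte markers. The first 3 columns plot CPM of *Icam1*, *Cd55* and *Dpp4* against the summed CPM of 6 lymphocyte markers, and the last plots *Dpp4* against *Pi16*, all on log axes. *Icam1* rises from a median of 21.9 to 48.3 CPM in females, and *Dpp4* and *Pi16* have an *r* of 0.89 under and 0.53 over the gap in females.

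Over the libraries of a sex, the relation of each member to the lymphocyte score (the mean log2 CPM of its markers, as for every score here) was computed as Pearson's *r* together with 14 other scores and library measures, 270 relations in all over both sexes, with permutation tests of 100000 resamples and Benjamini-Hochberg adjustment. Since the libraries form sets, the values within them are given, each set being adjusted over its own 270 relations. In the libraries over the gap the lymphocyte score had an *r* of 0.74 in females and 0.76 in males with *Icam1* (Spearman's rho 0.76 and 0.73, permutation *p* = 1e-05 each, the smallest that 100000 resamples give, adjusted *p* = 0.00027). With *Cd55* it had an *r* of 0.67 and 0.74 (rho 0.66 and 0.69), and with *Dpp4* of 0.56 and 0.59 (rho 0.56 and 0.50). These adjusted permutation *p*-values lay between 0.00027 and 0.00694 for *r* and between 0.00067 and 0.0268 for rho. Without the 2 libraries farthest from the median of the score, these 6 values of *r* lay between 0.58 and 0.69.

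Under the gap, where the markers are near their lowest levels, *r* of the lymphocyte score lay between -0.06 and 0.23 for these 3 genes, and none passed the adjusted threshold. *Icam1* went against the adipocyte score in both sets, with an *r* of -0.67 under and -0.76 over the gap in females and of -0.50 and -0.56 in males (rho -0.64, -0.68, -0.42 and -0.60, adjusted permutation *p* from 0.00027 to 0.00694 for *r* and from 0.00074 to 0.0448 for rho). The part of other cells in the level of *Icam1* was not tested.

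*Pi16* and *Wnt2* followed the 12 other interstitial progenitor genes in all sets. The *r* of *Pi16* with that score was 0.83 under and 0.83 over the gap in females and 0.89 and 0.71 in males (rho from 0.68 to 0.86, adjusted permutation *p* from 0.00027 to 0.00034 for *r* and from 0.00039 to 0.00104 for rho). The corresponding values of *Wnt2* were 0.62, 0.73, 0.81 and 0.77 (rho from 0.56 to 0.77, adjusted *p* from 0.00027 to 0.00198 for *r* and from 0.00039 to 0.0101 for rho). *Dpp4*, which marks the same cells, had an *r* of 0.77 in females and 0.83 in males under the gap (rho 0.72 and 0.74, adjusted *p* of 0.00034 for *r* and 0.00039 for rho), but of 0.32 and 0.25 over it (rho 0.25 and 0.19, adjusted *p* of 0.193 and 0.349 for *r* and of 0.348 and 0.502 for rho). Whether this *r* differs between the sets was not tested. *Pdgfra* followed the general progenitor and fibroblast score, with an *r* from 0.66 to 0.74 in the 4 sets (rho from 0.61 to 0.71, adjusted permutation *p* from 0.00034 to 0.00101 for *r* and from 0.00039 to 0.00351 for rho). The mammary score of the 9 mammary epithelial markers had an *r* of 0.46 with *Pdgfra* in females under the gap (rho 0.51), which passed by rho (adjusted permutation *p* = 0.0243) but not by *r* (adjusted *p* = 0.1002), and of 0.12 over it (rho 0.07, adjusted *p* of 0.724 and 0.841). With *Wnt2* it had an *r* of 0.30 under and 0.19 over the gap in females (rho 0.31 and 0.15, adjusted *p* from 0.260 to 0.601 for *r* and rho), and of 0.36 under the gap in males (rho 0.44, adjusted *p* of 0.102 for *r* and 0.0307 for rho). The part of mammary cells in the sex differences of these 2 genes was not tested.

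Whether the members move together over strains was asked for the 36 pairs in each sex. The share among pairs of other genes was not computed, so the counts of pairs are not set against a background. Over all libraries of a sex, 15 pairs passed the adjusted threshold in females and 23 in males (19 and 24 without the libraries against their Y-linked genes), but these counts mix the sets. Under the gap 6 pairs passed in females and 11 in males, and over it 12 and 7. The strongest pairs under the gap were those of *Dpp4*, *Pi16* and *Wnt2*. *Dpp4* and *Pi16* had an *r* of 0.89 in females (rho 0.85) and 0.85 in males (rho 0.79), *Pi16* and *Wnt2* 0.64 and 0.76 (rho 0.61 and 0.71), and *Dpp4* and *Wnt2* 0.63 and 0.85 (rho 0.57 and 0.86), with adjusted permutation *p* from 0.00018 to 0.00072 for *r* and from 0.00018 to 0.00496 for rho. Without the 2 libraries farthest from the median of the first gene these 6 values lay between 0.58 and 0.84.

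Over the gap the pair of *Pi16* and *Wnt2* had an *r* of 0.65 in females and 0.79 in males (rho 0.76 and 0.83, adjusted permutation *p* of 0.00043 and 0.00024 for *r* and 0.00014 for rho). *Dpp4* and *Cd55* had an *r* of 0.77 and 0.57 there (rho 0.76 and 0.54, adjusted *p* of 0.00024 and 0.00576 for *r*) and of 0.54 and 0.47 under the gap (rho 0.60 and 0.35, adjusted *p* of 0.00552 and 0.00853 for *r*), all 4 past the threshold by *r* and all but the male value under the gap by rho (adjusted *p* = 0.0732). For *Dpp4* and *Pi16* over the gap *r* was 0.53 in females (rho 0.52, adjusted *p* of 0.00903 and 0.0125) and 0.29 in males (rho 0.25, adjusted *p* of 0.288 and 0.314), and whether it differs from that under the gap was not tested. *Pdgfra* went with *Pi16* (0.74 and 0.60, rho 0.76 and 0.70) and *Wnt2* (0.67 and 0.61, rho 0.67 and 0.72) over the gap, all 4 past the threshold by *r* and by rho.

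Of the 15 and 23 pairs past the threshold over all libraries, 4 in females and 5 in males were also past it, with the same sign, under the gap, where fewer libraries enter. *Cd55* and *Icam1* had an *r* of 0.57 in females and 0.68 in males over all libraries (rho 0.61 and 0.58), but of -0.11 and -0.12 under the gap (rho -0.03 and -0.22, adjusted permutation *p* of 0.671 and 0.614). Over the gap *r* was 0.39 and 0.53 (adjusted *p* of 0.0829 and 0.0113). With the lymphocyte score removed from both genes in all libraries, that pair had an *r* of 0.02 and 0.06, and *Dpp4* and *Pi16* rose from 0.44 to 0.76 in females and from 0.33 to 0.72 in males. Among *F3*, *Clec11a* and *Fmo2*, no pair passed in both sexes within the libraries under or over the gap. Over all libraries *F3* and *Fmo2* had an *r* of 0.26 in females and 0.30 in males (adjusted permutation *p* of 0.0564 and 0.0245), past the threshold in both by rho (0.34 and 0.34, adjusted *p* of 0.0124 and 0.0101), and of 0.42 and 0.31 without the libraries against their Y-linked genes (adjusted *p* of 0.00156 and 0.0207).

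**Figure D4:**
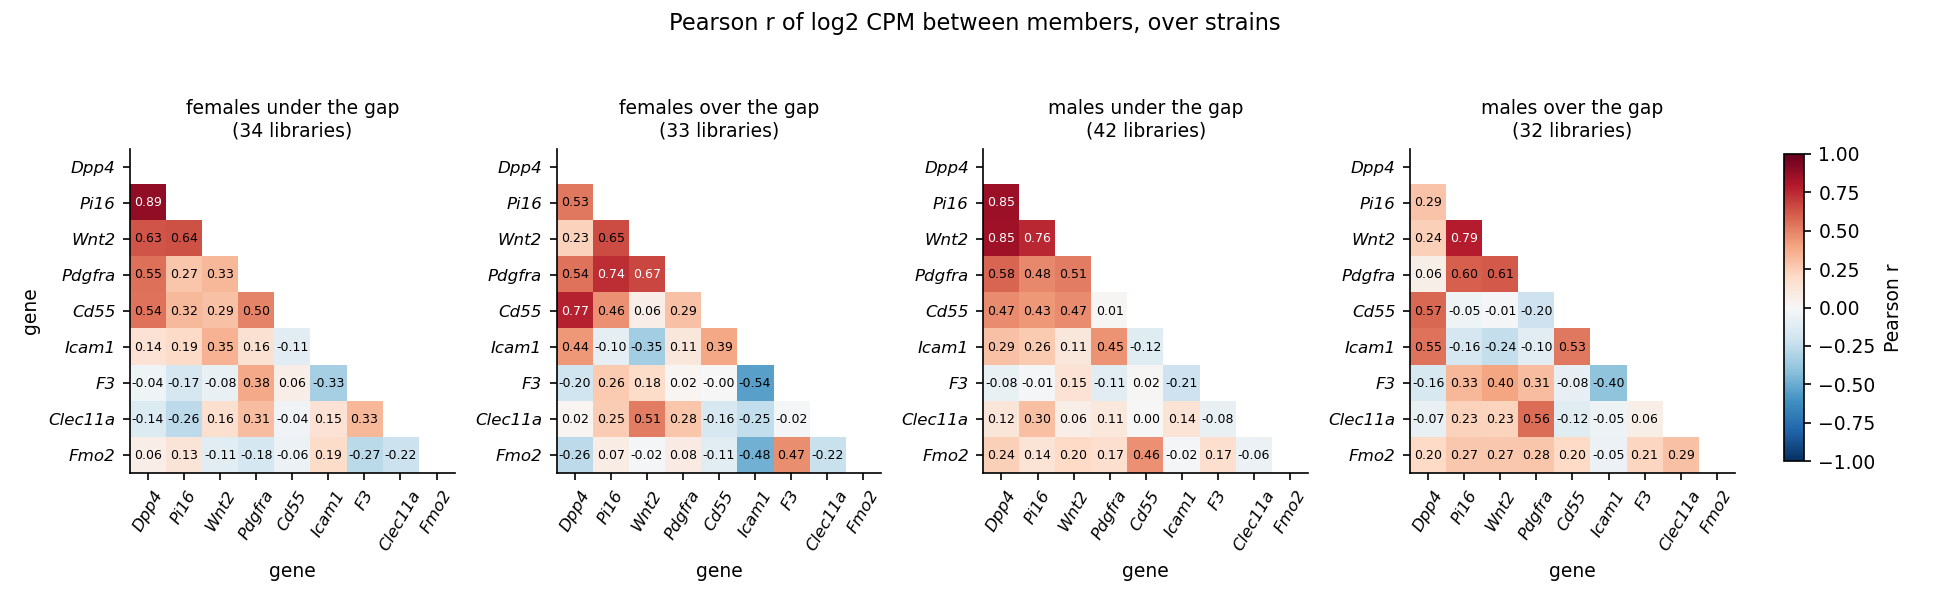
Pearson *r* of log2 CPM between the 9 genes over the libraries of each sex, under and over the gap in lymphocyte markers, with red for positive and blue for negative values on a scale from -1 to 1. *Dpp4* and *Pi16* reach 0.89 in females and 0.85 in males under the gap, and 0.53 and 0.29 over it.

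The genes most like each member, by the smaller of its Pearson *r* over the females and over the males among 14879 genes, differed between the members. These are over all libraries and describe the sets as well as the variation within them. *Icam1* was nearest to *Nfkbie*, an inhibitor of NF-κB (0.95), *Gmip* (0.93) and *Arid5a* (0.93). *Pi16* was nearest to *Gfpt2* (0.87), *Lrrn4cl* (0.86) and *Tmem100* (0.86), and *Wnt2* to the stromal marker *Cd248* (0.80), the plasminogen activator *Plat* (0.78) and *Adgrd1* (0.77). The nearest genes of *Cd55* included *Add3* (0.81) and *Jak1* (0.79), those of *Pdgfra* were the metalloproteinase inhibitor *Timp2* (0.79), *Aebp1* (0.75) and *Axl* (0.74), and those of *Dpp4* were the heparanase *Hpse* (0.76), the kinase *Fyn* (0.74) and *Notch2* (0.74). *F3* (*Fgfr1* 0.58, *Dctn4* 0.57, *Eif2b3* 0.55), *Fmo2* (*Fmo4* 0.58, *Thsd7a* 0.57, *Reep3* 0.55) and *Clec11a* (*P3h3* 0.53, *Gpr153* 0.53, *Lum* 0.50) had no neighbour as close.

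Whether the members differ between strains was asked with the F test of all strain terms in the same fit, in which the residual comes from how the 2 sexes of a strain differ. In edgeR, 6 of 9 members passed, against 71.2% of all genes tested. They were *Fmo2* (adjusted *p* = 2.41e-05), *Clec11a* (0.000467), *Pdgfra* (0.000726), *Cd55* (0.00252), *F3* (0.00867) and *Icam1* (0.0112). Of the genes listed with the interstitial population, *Cd55* thus passed, while *Dpp4*, *Pi16* and *Wnt2* did not, with adjusted *p* of 0.126, 0.122 and 0.153. In the 19 strains with both libraries under the gap in lymphocyte markers, 5 of the 9 passed and 65.2% of all genes did, and in the 17 with both over it 2 of the 9 and 31.5%.

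The correlation between the sexes of a strain was computed for each member, 9 relations in all. It was not computed over all genes, so the counts of members past the threshold have no such share beside them. Over the 59 strains *r* was 0.51 for *Fmo2* (rho 0.44), 0.44 for *Pdgfra* (rho 0.46), 0.41 for *Clec11a* (rho 0.51), 0.35 for *Cd55* (rho 0.35) and 0.30 for *F3* (rho 0.32), and these 5 of 9 passed a permutation test with adjusted *p* from 0.00108 to 0.0419. It was 0.23 for *Icam1* (rho 0.26), 0.21 for *Dpp4* (rho 0.22), 0.12 for *Pi16* (rho 0.11) and 0.11 for *Wnt2* (rho 0.10), with adjusted *p* from 0.116 to 0.410. Without the 2 strains farthest from the female median, *Fmo2* had an *r* of 0.39 and *Clec11a* of 0.57, and without NZW/LacJ *Clec11a* had 0.59.

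Within the 19 strains with both libraries under the gap, *Icam1* had an *r* of 0.70 between the sexes (rho 0.68, permutation test, adjusted *p* of 0.00355 and 0.00877), *Fmo2* of 0.73 (rho 0.69) and *Pdgfra* of 0.68 (rho 0.65), and these 3 passed. *Dpp4*, *Pi16* and *Wnt2* had 0.14, -0.07 and 0.11 (rho 0.13, -0.17 and 0.21). In the 17 strains with both over it none of the 9 passed, with *r* from 0.04 for *Wnt2* to 0.52 for *Clec11a* (adjusted permutation *p* of at least 0.167). The unadjusted *p* was under 0.05 for 2 of the 9, *Clec11a* (0.0371) and *Fmo2* (0.0354).

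In both sexes, some strains lay at the same end. *Fmo2* was 195 CPM in the female and 262 CPM in the male of BXD43/RwwJ and 212 and 167 CPM in BXD44/RwwJ, which are the ranks 1 and 2 of 59 in either sex. *Icam1* was lowest in BXD12/TyJ in both sexes (12.8 and 10.9 CPM), and *Cd55* was at 158 and 187 CPM in BXD66/RwwJ, ranks 2 and 1. BXD12/TyJ was also last in males for *Pdgfra*, *Dpp4* and *Pi16*, while its *F3* was at 95.6 and 104.5 CPM, ranks 4 and 1, and its male had the highest adipocyte sum of all males, 42693 CPM.

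By contrast, in other strains the sexes lay far apart. AXB12/PgnJ had 172 CPM of *Icam1* in the female and 20.7 CPM in the male, and its female also had the lowest *Fmo2* and, among the matched strains, the lowest *F3* of all females. That female library had the highest lymphocyte sum (1132 CPM) and the lowest adipocyte sum (3358 CPM) of the females. BXD40/TyJ had 131.2 CPM of *Pi16* in the female and 10.3 CPM in the male, whose lymphocyte sum of 876 CPM was the highest of the males. BXD75/RwwJ was above the median of its sex in *Dpp4*, *Pi16* and *Wnt2*, with 102.5 and 42.7 CPM of *Dpp4*, 217 and 95.2 CPM of *Pi16* and 10.4 and 3.51 CPM of *Wnt2* in female and male. Its *Cd55* was at 155 CPM in the female and at 80.5 CPM, next to the median, in the male.

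Whether the sex difference depends on the family was asked as the interaction of sex with BXD membership, in 26 BXD strains and 33 others. In edgeR, 0 of the 9 members passed and 0% of all genes tested did, while 314 genes (1.87%) had an unadjusted *p* under 0.05, none of them a member. The member nearest to it was *F3* (*p* = 0.0528), higher in the female in 7 of 26 BXD strains and in 17 of 33 others. For *Wnt2* the mean difference of log2 CPM was 1.197 ± 1.26 (SD) in BXD and 1.14 ± 1.204 in the other strains.

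Differences between the 5 families were tested within each sex, over all libraries. In edgeR's F test 1 of 9 members passed in females, against 8.73% of all genes, and 2 of 9 in males, against 13.1%. In females this was *Wnt2* (adjusted *p* = 0.0401). The 2 BXH females had 9.01 and 10.9 CPM, above the median of 3.37 CPM in the 21 classical inbred strains and 3.56 CPM in the 32 BXD strains, and the 3 CXB females had 1.19, 1.49 and 1.90 CPM. In males, the order of these families was turned, with 0.360, 0.821 and 0.834 CPM in BXH and 1.44, 2.26 and 2.80 CPM in CXB (adjusted *p* = 0.0568, edgeR). The CXB strains were the same in both sexes, but of the BXH strains only BXH8/TyJ was. It had 10.9 CPM in the female and 0.821 CPM in the male. The call in females was lost without any one of these 5 libraries (adjusted *p* from 0.0563 without CXB6/ByJ to 0.138 without BXH8/TyJ) and without BXD34/TyJ and BXD69/RwwJ (0.0519). All 3 BXH males and 0 of 3 CXB males were over the gap in lymphocyte markers, as were 1 of 2 BXH and 2 of 3 CXB females, and the part of this in the result was not tested.

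*F3* in males had the smallest adjusted *p* between families (adjusted *p* = 0.000425, edgeR). Its median was 54.3 CPM in the 34 BXD males, with a log2FC of 0.34 ± 0.11 against classical inbred strains, and 33.6 CPM in the 11 AXB/BXA males (-0.41 ± 0.15), compared with 43.6 CPM in the 23 classical inbred strains. The ranges overlapped, from 29.5 (BXD24/TyJ-Cep290<rd16>/J) to 104.5 CPM in BXD and from 21.9 to 51 CPM in AXB/BXA. The AXB/BXA males AXB19/PgnJ, AXB19a/PgnJ and AXB19b/PgnJ, which share a line number, had 29.7, 24 and 21.9 CPM, all under the family median. How far the result rests on counting them as separate strains was not tested. With the lymphocyte score as covariate the adjusted *p* was 0.000269, and without any one of the BXH or CXB libraries it lay between 0.000376 and 0.000791. In females the medians were 45.6 CPM in BXD, 47.9 CPM in classical inbred and 35 CPM in AXB/BXA strains, with an adjusted *p* of 0.593.

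*Fmo2* in males also differed between families (adjusted *p* = 0.0261, edgeR), with medians of 81.3 CPM in BXD (log2FC 0.52 ± 0.17 against classical inbred), 55.8 CPM in classical inbred strains and 36 CPM in BXH. Without BXH9/TyJ the adjusted *p* was 0.0585. BXD43/RwwJ and BXD44/RwwJ, the strains with the highest *Fmo2* in both sexes among the 59 matched ones, are BXD strains. For the other members the adjusted *p* between families lay from 0.221 to 0.799 in females, apart from *Wnt2*, and from 0.0568 to 0.665 in males.

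**Figure D5:**
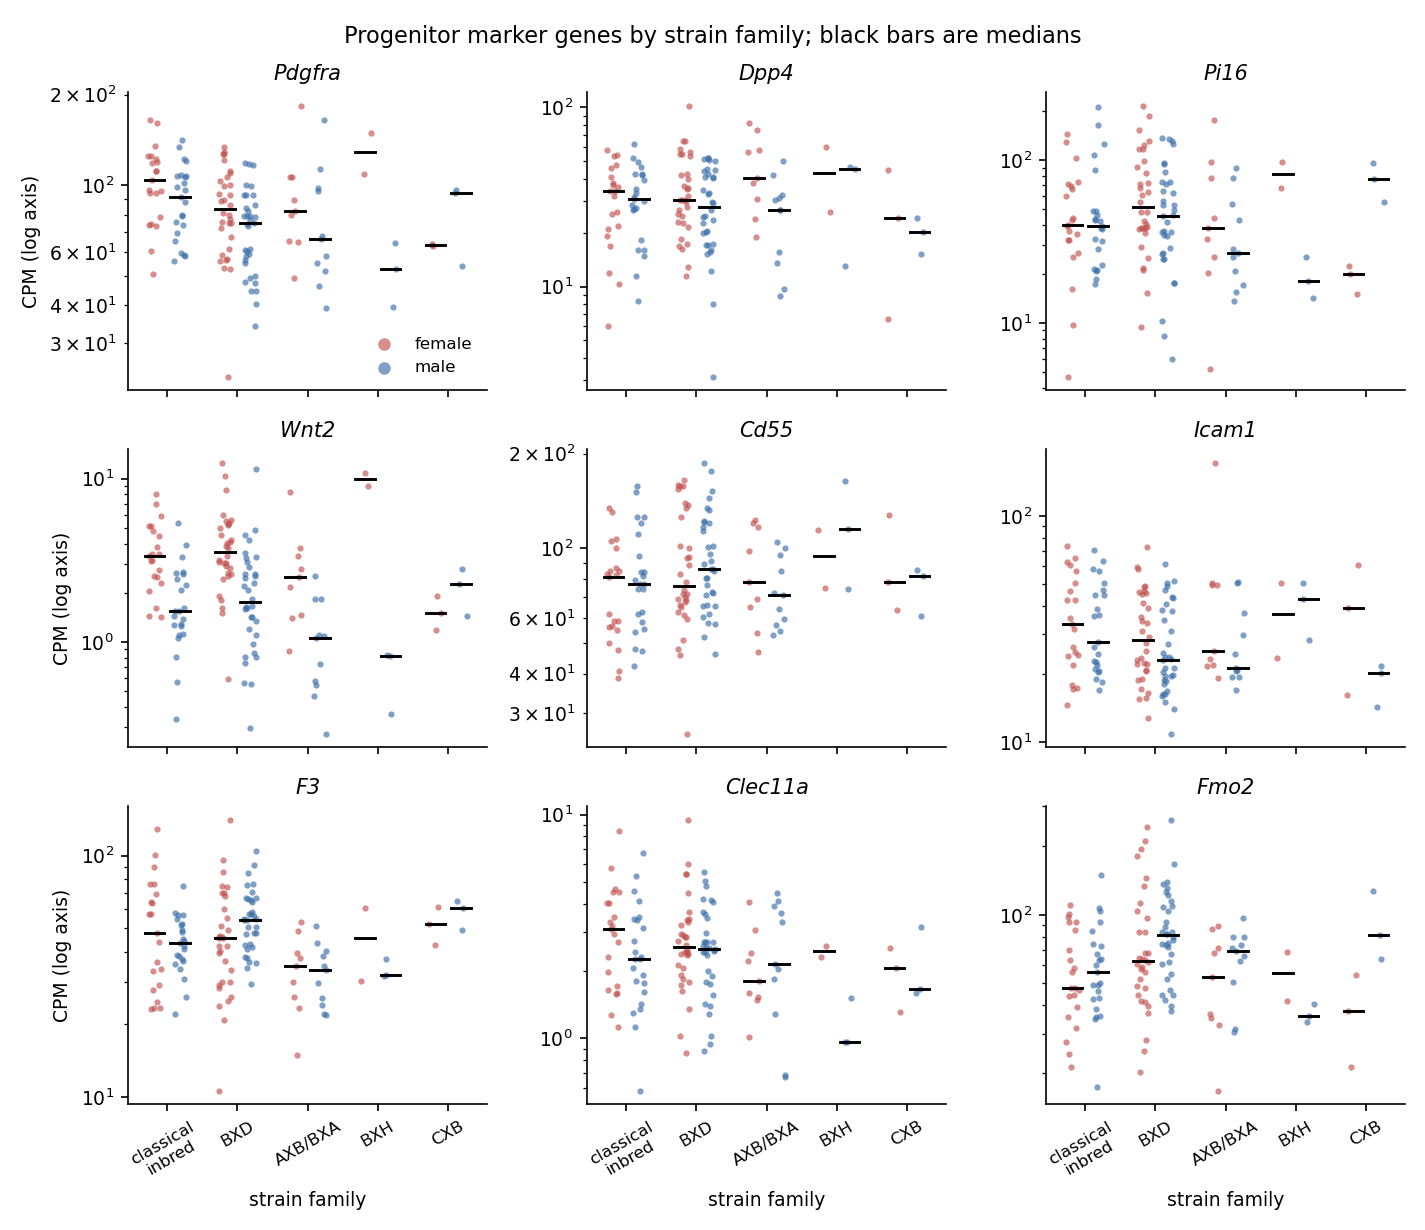
Expression of the 9 genes by strain family as CPM on log axes, each point 1 library, females in red and males in blue, with black bars at the medians. The 2 BXH females lie at 9.01 and 10.9 CPM of *Wnt2*, above the median of 3.56 CPM of the 32 BXD females, and *F3* in the 11 AXB/BXA males has a median of 33.6 CPM against 54.3 CPM in the 34 BXD males.

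Of the remaining cell type lists, 5 of 6 endothelial genes were lower in females, led by *Cdh5* (-0.58 ± 0.09), *Tie1* (-0.52 ± 0.07) and *Kdr* (-0.37 ± 0.07), and so were 5 of 5 macrophage genes, led by *Trem2* (-1.38 ± 0.18), *Cd68* (-0.83 ± 0.12) and *Adgre1* (-0.73 ± 0.14). Of 5 mural genes, 2 were higher, among them *Acta2* (0.67 ± 0.12), and 3 lower, led by *Cspg4* (-0.86 ± 0.10) and *Rgs5* (-0.66 ± 0.08). Of 4 Schwann cell genes, 1 was higher, *Sox10* (3.07 ± 0.22), and 2 were lower, among them *Mbp* (-0.26 ± 0.07). Of 5 mesothelial genes 2 were tested and 1, *Lrrn4* (0.45 ± 0.15), was higher, at summed levels with medians of 2.13 and 1.77 CPM, and 0 of 4 skeletal muscle genes tested passed.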

How the data were processed

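RNA-seq of iWAT from HMDP strains was made with poly(A) selection and stranded paired-end libraries. The authors quantified reads with kallisto (version 0.46.1 in the submitters' processing notes) against Ensembl 97 (GRCm38) and, with tximport, brought transcript values to the level of genes. They deposited estimated counts, of which 30.3% were not whole numbers, and TPM, which sum to 1000000 per library. Counts were rounded. Normalisation was TMM, with a filter on low counts (filterByExpr), and tests were edgeR 4.0.16 quasi-likelihood F tests in R 4.3.3 with Benjamini-Hochberg adjustment over all genes tested, at 0.05. Sex and strain variation used ~ Strain + Sex in 59 matched strains, families a model per sex, and the interaction sex by BXD. CPM per library were TMM-scaled, with a prior count of 2 for log2 values. Depth sets precision through the floor of 3 counts. Permutation tests were two-sided. The sexes were paired by strain, taken from the labels, which is the replicate block. The study's methods report 1 or more samples per sex and strain, whereas the tables hold 1 library for each. The labels do not say whether a library is 1 animal or a pool.

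The members and all lists were chosen with earlier results of these data known. The text names all 9 members, up to 3 genes with the largest absolute log2FC among those passing in each other list, and the 3 most alike genes per member among those with a mean of at least 1 CPM. A few genes that this rule names are not reported here. Gene positions come from GENCODE M21 and promoters from RefSeq. Alternatives were RLE factors, library totals, other filters, covariates, limma 3.58.1, DESeq2 1.42.0, TPM with pseudocounts of 1 and 0.1, and left-out libraries. On simulated counts the sex test recovered 99 of 100 genes changed by 0.5 and 100 of 100 changed by 1 on the log2 scale. These counts had the same dispersion in every gene, no sets by lymphocyte markers and no libraries against their label. Recovery in the real counts can therefore be lower. Recovery at the SE of the noisier members, *Pi16* (0.21), *Wnt2* (0.17) and *Dpp4* (0.14), was not tested.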

Additional observations from a re-analysis of the deposited data

Results flagged for a closer look

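The AXB/BXA females were the only family of 4 to 10 libraries in a sex, and in these 9 libraries the highest or lowest was set against the others by Dixon's criterion for each of the 9 genes. Chance passes about 1 in 20 such comparisons where values are normally distributed, which was not checked. The criterion was applied to CPM, where a skew to high values lets more of them pass, and not to log2 CPM. The comparisons share their libraries and are not independent. Of the 9 genes, 3 passed. *Pdgfra* was 184 CPM in AXB13/PgnJ, with a gap to the next library of 0.574 of the whole range, against a critical value of 0.493. *Wnt2* was 8.24 CPM in the same library (0.608 of the range). *Icam1* was 172 CPM in AXB12/PgnJ (0.796 of the range), the library with the highest lymphocyte and the lowest adipocyte marker sum among females.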

How the results depend on the processing

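The count of members higher in females was 4. It was 2 without the replicate block in all libraries, where 26.6% of all genes were higher, and in the strains with both libraries under (17.9%) or both over (19.4%) the lymphocyte gap, against 28.4% in the comparison as reported, and between 3 and 5 in all other settings. The count lower in females was 1, and 0 with library totals, without the replicate block in the matched strains or in all libraries, in the strains with both libraries over the gap and with TPM at pseudocounts of 1 and 0.1, but 2 with the adipocyte covariate. The pairing of libraries by strain moved the genes called from 8190 without the block to 9747 with it. Strain variation fell from 6 members to 2 over the gap, as all genes did from 71.2% to 31.5%. The family test in females fell from 1 member (8.73% of all genes) to 0 with at least 10 counts in every library (3.28%). Its count was also 0 without the libraries against their Y-linked genes (6.07%), with TPM (1.65%), and without any single BXH or CXB library (8.16% to 9.22%). In males the family test fell from 2 members (13.1% of all genes) to 1 with TPM (14.5%). It lay between 1 and 2 without any single BXH or CXB library (9.79% to 14.5%). Pairs past the threshold fell in females from 15 to 6 under the gap, and in males from 23 to 12 with the lymphocyte score removed, 11 under and 7 over the gap. Correlations between the sexes past the threshold fell from 5 to 3 under and 0 over it, and were 4 with TPM and 6 with the adipocyte or the lymphocyte score removed.

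Signs turned with the adipocyte covariate for the log2FC of *Dpp4* (-0.0211), *Cd55* (-0.22, adjusted *p* = 0.0328), *Icam1* (-0.31, adjusted *p* = 0.00134), *F3* (0.27, adjusted *p* = 0.0215, edgeR) and *Fmo2* (0.0198). They turned for *Cd55* with the lymphocyte covariate (-0.0506), without the block in all libraries (-0.0450) and over the gap (-0.0181), and for *F3* with library totals (0.0313), the lymphocyte covariate (0.0126), no block (0.0089, and 0.0191 in all libraries) and TPM (0.0090 and 0.0084). The interaction log2FC turned for *Wnt2* with library totals (-0.0218) and for *Clec11a* without the libraries against their Y-linked genes (0.0705). The *r* of *Cd55* and *Icam1* was -0.11 in females and -0.12 in males under the gap, that of *Icam1* and *Fmo2* in females 0.0011 with the adipocyte score removed and 0.19 under the gap, and that of *Pi16* between the sexes -0.0675 under the gap. The cause was not tested. The difference of *Icam1* missed the threshold without a filter (adjusted *p* = 0.0736) and without mitochondrially encoded genes (0.0587, edgeR). *Wnt2* was not tested with at least 10 counts in every library. The covariates for lymphocytes, the sets under and over the gap and the fit without PL/J were chosen after seeing the data. Depth limits *Clec11a* and *Wnt2* most.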
